A study of Homo sapiens with 6 samples.

Results

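The SLC16 genes encode the monocarboxylate transporter (MCT) family, and 9 of them are described here: SLC16A1, SLC16A3, SLC16A4, SLC16A5, SLC16A6, SLC16A7, SLC16A9, SLC16A10 and SLC16A14. They were chosen by family name around SLC16A6, which was selected on its higher level in cells over-expressing miR-424, so that the comparison below had already been seen when the family was put together. Its values are therefore given as a description, and no p-value is printed for a member. Of the 24294 loci in the deposited table, each member matched 1 row, and 7 of the 9 reached the mean of 1 FPKM (fragments per kilobase of transcript, scaled to the size of the library) that was required for testing. SLC16A9 lay just under that minimum, with a mean of 0.996 FPKM over the 6 libraries, and SLC16A10 far under it at 0.0190 FPKM. Of all loci, 11574 were tested.

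RNA was sequenced from the human mammary epithelial line MCF12A, which is immortalized and which the labels call a breast cancer line. The cells stably carried either a miR-424 construct or an empty vector (EV), and each group of 3 samples was grown for 48 hours. The labels do not say whether the triplicates derive from separate stable lines, so errors and p-values measure only how far these samples spread, possibly for technical reasons. The construct's promoter, not given in the sources used here, could not be described. FPKM sums were between 409776 and 424564 per library, and single-fragment steps among low values placed the relative depths between 0.768 and 1.22 of EV replicate 1. Those depths are approximate, since only 4.09% to 17.1% of low loci lay at the step. The share of 4.09% was that of miR-424 replicate 3, placed at 1.22, so its depth is the least certain.

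Monocarboxylate transporters are membrane proteins of the major facilitator superfamily. SLC16A1, SLC16A3, SLC16A7 and SLC16A8 carry lactate, pyruvate and ketone bodies together with a proton, and SLC16A1 and SLC16A3 need the glycoprotein basigin (BSG) to reach the cell surface. Other members carry other molecules: SLC16A10 transports aromatic amino acids, SLC16A9 carnitine and SLC16A12 creatine. SLC16A6, also called MCT7, has been linked to the export of the ketone body beta-hydroxybutyrate from liver cells. Glycolytic cells release lactate mainly through SLC16A3, whose gene is a known target of the hypoxia factor HIF1A.

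The microRNA and its matches among the members are shown first because the construct is the only difference that the labels give between the groups. The mature strands of miR-424 in RefSeq (GRCh38.p14, minus strand) are written below with the seed, bases 2 to 8, in capitals.
hsa-miR-424-5p, chrX:134546680-134546701: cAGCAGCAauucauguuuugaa
hsa-miR-424-3p, chrX:134546644-134546664: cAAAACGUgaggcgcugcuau

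The reverse complements of these seeds, TGCTGCT for the 5p strand and ACGTTTT for the 3p strand, were searched on the sense strand of the longest annotated 3' UTR of each member (GENCODE 29, GRCh38). Of the 9 members, 4 held 1 match to the 5p seed and 1, SLC16A14, held 1 match to the 3p seed, which occurred in 7.8% of the longest 3' UTRs of 9833 tested loci. The windows of 30 bases around the 5p matches are given with the match in capitals.
SLC16A6, minus strand, chr17:68267606-68267635: tgcaggtgatggtcaatgctTGCTGCTcca
SLC16A1, minus strand, chr1:112912022-112912051: agagtgttagaggagaaaacTGCTGCTgag
SLC16A3, plus strand, chr17:82239203-82239232: tcctcaccaggggccccgccTGCTGCTccc
SLC16A7, plus strand, chr12:59782314-59782343: cttgaacttgttagaagattTGCTGCTtta

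A match to the 5p seed occurred in 25.3% of those 9833 UTRs, and in 29.1% of the ones within 0.8 to 1.25 times the length of the SLC16A6 UTR (2070 bases). In SLC16A6 the match began 1481 bases after the stop codon. Another annotated SLC16A6 transcript, matched to a RefSeq entry that the table row also lists, had a 3' UTR of 899 bases without the match. For SLC16A3 (1110 bases) and SLC16A7 (10176 bases) the share among UTRs of like length was 19.6% and 72.3%, and for SLC16A1 (2044 bases) it was 29.1%. Shorter annotated 3' UTRs of SLC16A7 (534, 310 and 96 bases) and a short one of SLC16A3 (34 bases) also lacked the match. The base after the match was not an A in any of these 4 windows. These are matches of letters in an annotation, not measured binding.

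The locus of miR-424 was read as a check of the construct. This locus, MGC16121/MIR424, read 0.989, 1.27 and 1.23 FPKM in EV replicates 1 to 3 and 107, 106 and 224 FPKM in miR-424 replicates 1 to 3. All 3 miR-424 libraries were far above the EV libraries, and replicate 3 had the highest value. Reads from the construct and from the cells' own locus were not told apart here, so no p-value is given. MIR503, listed in the same span, was under the minimum for testing. It read 0, 0 and 0.643 FPKM in EV replicates 1 to 3 and 0, 0 and 0.612 FPKM in miR-424 replicates 1 to 3. These mRNA libraries do not measure the mature microRNA.

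SLC16A6 was the member that separated the groups most. Its FPKM were 3.72, 4.06 and 4.04 in EV replicates 1, 2 and 3 and 8.98, 9.12 and 7.97 in miR-424 replicates 1, 2 and 3. Every miR-424 library was above every EV library, and the lowest miR-424 value came from replicate 3. The mean went from 3.94 ± 0.19 to 8.69 ± 0.63 FPKM (SD, n = 3 each), a ratio of 2.20, and the log2 change on log2(FPKM + 1) was 0.97 ± 0.06 (SE). By log2 change on this scale, which understates changes of low loci, it had rank 3 among the 144 rises of all tested loci. In bulk RNA more RNA per cell and more cells of one kind cannot be told apart. Among the 7 tested members it was the only one past the threshold of limma (Benjamini-Hochberg adjusted p under 0.05 over all tested loci), against 7.56% of all tested loci past it in either direction, 1.24% higher and 6.32% lower. The split of 144 higher and 731 lower loci became 308 and 495 with median-of-ratios scaling and 319 and 447 with quantile normalization. As the family was chosen with this contrast in view, nothing is read from that count. The log2 change lay between 0.94 and 1.12 in 16 other settings, which included the omission of each library in turn, and it stayed past the threshold in all of them. These settings refit the libraries on which SLC16A6 was selected, so neither they nor its rank are independent support.

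**Figure D1:**
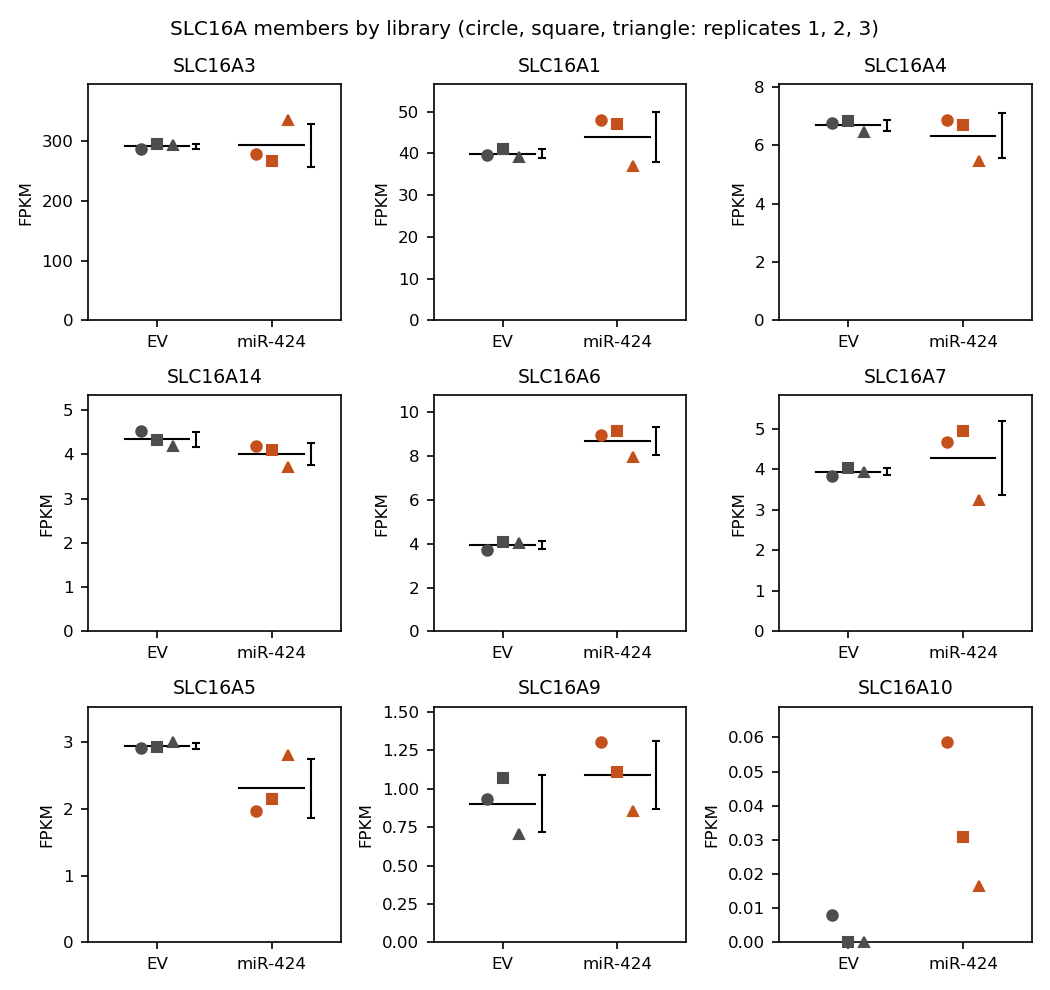
FPKM of each SLC16A member (vertical axes, each from 0) in the 3 EV and 3 miR-424 libraries; symbols mark replicates 1, 2 and 3, the horizontal line is the mean and the bar its SD, neither of which is drawn for SLC16A10 because libraries are listed at 0. SLC16A6 lies between 7.97 and 9.12 FPKM in miR-424 cells and between 3.72 and 4.06 FPKM in EV cells, while most other members overlap between groups.

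The rise changed the place of SLC16A6 in the order of the family. FPKM is scaled to length, so levels can be set side by side between genes, but only roughly. Values in the miR-424 libraries also moved with transcript GC content. In EV cells the order of mean FPKM was SLC16A3, SLC16A1, SLC16A4, SLC16A14, SLC16A6, SLC16A7, SLC16A5, SLC16A9 and SLC16A10, and among neighbours in that order only SLC16A6 and SLC16A7 (3.94 and 3.93 FPKM) had overlapping ranges. In miR-424 cells SLC16A6 came next after SLC16A1, above SLC16A4 (6.33 FPKM) in every library, and only SLC16A7 and SLC16A14 (4.28 and 4.01 FPKM) overlapped. SLC16A6 made up 1.11% ± 0.04 of the members' summed FPKM in EV cells and 2.41% ± 0.34 in miR-424 cells (SD, n = 3). Leaving aside the abundant SLC16A1 and SLC16A3, its share of the rest was 16.4%, 17.5% and 18.1% in EV replicates 1, 2 and 3 and 32.1%, 32.4% and 33.1% in miR-424 replicates 1, 2 and 3. The shares of the groups did not overlap.

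SLC16A6 lies inside another gene, which bears on how its value is read. The table gives its locus as chromosome 17, 66255322 to 66417000 (hg19), the same span as that of ARSG, the gene of the lysosomal enzyme arylsulfatase G, and lists a value for each. In GENCODE 29 (GRCh38) SLC16A6 is on the minus strand at chromosome 17, 68267026 to 68291267, and ARSG on the plus strand, and 144 exonic bases are common to both, 3.5% of those of SLC16A6 and 2.2% of those of ARSG. Whether counting used strand was not given in the sources used here. If it did not, reads from those shared bases cannot be assigned to one gene. ARSG read 3.44, 3.74 and 3.43 FPKM in EV replicates 1, 2 and 3 and 3.98, 4.06 and 4.004 FPKM in miR-424 replicates 1, 2 and 3. The groups did not overlap, against 33.5% of all tested loci. The log2 change of 0.14 ± 0.05 (SE) did not pass the test over all loci (adjusted p = 0.116 by limma with Benjamini-Hochberg). It passed without miR-424 replicate 3, where the log2 change was 0.15 and the adjusted p by limma with Benjamini-Hochberg was 0.0379. It also passed with the GC trend removed, where the log2 change was 0.20 and that adjusted p 0.0254. Over the 15 alternatives that tested ARSG its adjusted p (limma) ran from 0.0202 to 0.355. The ratio of SLC16A6 to ARSG was 1.11 ± 0.05 in EV cells and 2.16 ± 0.15 in miR-424 cells (SD, n = 3).

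The genes on either side changed less. WIPI1, which encodes an autophagy protein that binds phosphoinositides, rose from 13.8 ± 0.39 to 16.0 ± 0.57 FPKM (SD, n = 3), a log2 change of 0.20 ± 0.04 (SE; adjusted p = 0.0438 by limma with Benjamini-Hochberg). The call of WIPI1 was lost without EV replicate 1, 2 or 3 or miR-424 replicate 1 or 2, where the log2 change lay between 0.18 and 0.23, and also with the replicate block and without a filter on low values. AMZ2, which encodes a metallopeptidase, went from 55.5 ± 0.51 FPKM without to 50.0 ± 5.0 FPKM with miR-424 and did not pass, although the groups did not overlap (log2 change -0.15 ± 0.07, SE; adjusted p = 0.263 by limma with Benjamini-Hochberg). Groups did not overlap in 33.5% of all tested loci. MIR635, listed within the WIPI1 locus, was under the minimum for testing.

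**Figure D2:**
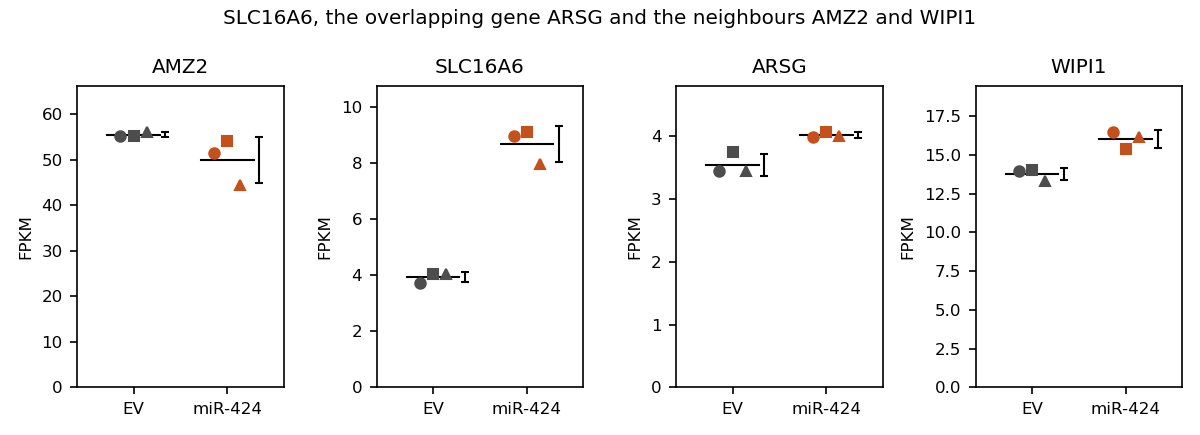
FPKM (vertical axes, each from 0) of SLC16A6, of ARSG, which shares its span, and of the nearest loci AMZ2 and WIPI1 in each library; the line is the mean of 3 libraries and the bar its SD. SLC16A6 goes from a mean of 3.94 to 8.69 FPKM while ARSG goes from 3.54 to 4.01 FPKM.

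SLC16A3 and SLC16A1, the proton-linked lactate carriers, supplied most of the family's RNA and kept similar group means. SLC16A3 (MCT4; chromosome 17, 80186281 to 80197375, hg19) read 287, 295 and 293 FPKM in EV replicates 1, 2 and 3 and 278, 267 and 334 FPKM in miR-424 replicates 1, 2 and 3. Replicates 1 and 2 of the miR-424 group lay below all EV libraries and replicate 3 above them, so the log2 change of 0.00 ± 0.08 (SE) averages opposite deviations. SLC16A1 (MCT1; chromosome 1, 113454469 to 113498975) had the reverse arrangement. It read 39.7, 41.0 and 39.1 FPKM in EV replicates 1, 2 and 3 and 47.9, 47.0 and 36.9 FPKM in miR-424 replicates 1, 2 and 3, with a log2 change of 0.13 ± 0.10 (SE). The ratio of SLC16A3 to SLC16A1 was 7.22, 7.18 and 7.51 in EV replicates 1, 2 and 3, and 5.81, 5.68 and 9.05 in the miR-424 libraries, again by number. The miR-424 libraries thus fell on both sides of the EV range.

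SLC16A7 (MCT2; chromosome 12, 59989820 to 60183635, hg19), a carrier with high affinity for pyruvate and lactate, followed the arrangement of SLC16A1. Its FPKM were 3.84, 4.02 and 3.94 in EV replicates 1, 2 and 3 and 4.67, 4.93 and 3.24 in miR-424 replicates 1, 2 and 3 (log2 change 0.08 ± 0.12, SE). SLC16A5 (MCT6; chromosome 17, 73084054 to 73102248), which has been reported to carry drugs such as bumetanide, read 2.91, 2.92 and 2.99 FPKM in EV replicates 1, 2 and 3 and 1.97, 2.14 and 2.80 FPKM in miR-424 replicates 1, 2 and 3. All miR-424 libraries of SLC16A5 were below the EV libraries, replicate 3 by the smallest margin, and the log2 change was -0.26 ± 0.09 (SE). With SLC16A6 it was 1 of 2 tested members whose groups did not overlap, against 33.5% of all tested loci.

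SLC16A4 (MCT5; chromosome 1, 110905472 to 110933704, hg19) and SLC16A14 (MCT14; chromosome 2, 230899689 to 230933715), whose substrates are less well defined, had group means close to each other. SLC16A4 went from 6.68 ± 0.20 FPKM without to 6.33 ± 0.76 FPKM with miR-424 (log2 change -0.07 ± 0.08, SE). Its groups overlapped, and miR-424 replicate 3, at 5.45 FPKM, was the lowest library. SLC16A14 had 4.33 ± 0.17 and 4.01 ± 0.25 FPKM (log2 change -0.09 ± 0.05, SE), with overlapping groups. SLC16A9, the carnitine transporter gene (chromosome 10, 61410521 to 61469649), read 0.934, 1.07 and 0.703 FPKM in EV replicates 1, 2 and 3 and 1.3005, 1.11 and 0.857 FPKM in miR-424 replicates 1, 2 and 3. These groups overlapped as well. SLC16A10 (chromosome 6, 111408780 to 111544606) was listed at 0 in EV replicates 2 and 3 and at 0.00805 FPKM in EV replicate 1. It was listed at 0.0585, 0.0310 and 0.0164 FPKM in miR-424 replicates 1, 2 and 3, levels too low to compare.

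Library miR-424 replicate 3 stood apart in the family as in the table as a whole. The median absolute log2 difference per tested locus was 0.0408 between miR-424 replicates 1 and 2, 0.0357 to 0.0417 between EV replicates, and 0.142 and 0.152 between replicate 3 and the other two. Replicate 3 was on the other side of the EV mean from replicates 1 and 2 in 4 of the 7 tested members (SLC16A1, SLC16A3, SLC16A4 and SLC16A7), against 35.3% of all tested loci. Transcript GC content moved with this. Under 40% GC the median deviation from the EV mean was 0.07, 0.09 and -0.22 (log2) in miR-424 replicates 1, 2 and 3. Over 60% GC it was -0.09, -0.12 and -0.05. SLC16A7, SLC16A4, SLC16A6, SLC16A1 and SLC16A14 had 40.4% to 43.4% GC and SLC16A5 and SLC16A3 had 60.9% and 64.6%.

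Leaving out miR-424 replicate 3 raised the number of members past the threshold from 1 to 5, and the share of all tested loci past it from 7.56% to 37.2%. The log2 changes were then 0.24 for SLC16A1, 0.23 for SLC16A7, -0.10 for SLC16A3, -0.37 for SLC16A5 and 1.03 for SLC16A6. With the GC trend removed as well, 4 members and 29.4% of all tested loci passed, at 0.21 for SLC16A1, 0.18 for SLC16A7, -0.28 for SLC16A5 and 0.98 for SLC16A6, and SLC16A3 was at 0.02. With the GC trend removed and all 6 libraries kept, SLC16A6 was the only member that passed (13.1% of all tested loci did), with a log2 change of 1.0 ± 0.041 (SE). For SLC16A6 the deviations from the EV mean were 1.01, 1.04 and 0.86 in miR-424 replicates 1, 2 and 3. SLC16A6 was selected on these libraries, so its values here are a description only.

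**Figure D3:**
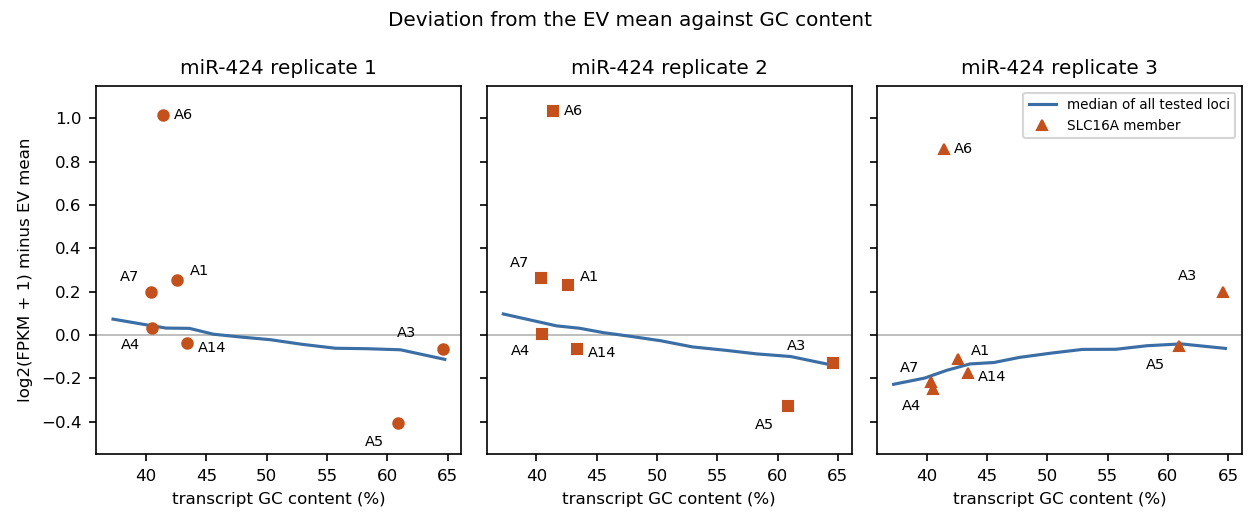
Deviation of each tested SLC16A member from the EV mean on log2(FPKM + 1) (vertical axis) against the GC content of its transcripts in percent (horizontal axis), 1 panel for each miR-424 library, labels without the prefix SLC16; the line joins the medians of all tested loci in 12 bins of GC content. SLC16A6 is at 1.01, 1.04 and 0.86, far above the line in every library, while SLC16A1 and SLC16A7 are below 0 in replicate 3 alone.

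The loci most like SLC16A6 in their profile over the 6 libraries were KCNJ15, SULF1, AMIGO2, COL8A1 and SEMA7A, by the root-mean-square difference of log2(FPKM + 1) after the EV mean was subtracted (0.07, 0.07, 0.07, 0.10 and 0.17). KCNJ15, a potassium channel gene, went from 0.663 ± 0.048 to 2.25 ± 0.34 FPKM. Its ratio of 3.39 was above that of SLC16A6 (2.20). With a pseudocount of 0.1 the log2 changes were 1.61 for KCNJ15 and 1.12 for SLC16A6, so this likeness depends on the pseudocount. SULF1, a heparan sulfate sulfatase gene, went from 2.86 ± 0.13 to 6.29 ± 0.35 FPKM (SD, n = 3). The means of AMIGO2 were 21.3 ± 0.60 and 41.0 ± 4.0 FPKM, those of the collagen gene COL8A1 3.38 ± 0.046 and 6.98 ± 0.76 FPKM, and those of the semaphorin gene SEMA7A 5.01 ± 0.21 and 9.36 ± 0.60 FPKM. These loci were picked by likeness in the same contrast, so their levels are a description only.

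A further 4 SLC16 genes were measured at low levels. SLC16A12, the creatine transporter gene, was at 0.957 ± 0.022 and 0.786 ± 0.063 FPKM and SLC16A13 at 0.687 ± 0.056 and 0.511 ± 0.152 FPKM (SD, n = 3), both too low to be tested. SLC16A8 and SLC16A11 did not exceed 0.0845 FPKM in any library.

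These 4 SLC16 genes and the partners and pathways of the transporters were taken as 10 lists with 85 genes in the table, of which 63 were tested, 2 rose and 5 fell. These counts stand beside 1.24% and 6.32% of all tested loci, and the median log2 change was -0.01 over the 63 genes and -0.05 over all tested loci. By limma 0 of the 63 passed when EV replicate 1, 2 or 3 was left out (11, 9 and 12 had an unadjusted p under 0.05, against 15.7% to 16.1% of all tested loci), 1 and 3 passed without miR-424 replicate 1 and 2, and 29 without miR-424 replicate 3. The shares of all tested loci that passed in these 3 omissions were 2.96%, 3.87% and 37.2%. By list the median was -0.07 for the chaperones, -0.01 for lactate and pyruvate metabolism, 0.07 for glucose uptake and glycolysis and -0.07 for acid-base genes. It was 0.01 for ketone body metabolism, -0.07 for carnitine genes, -0.14 for aromatic and large neutral amino acid transporters and -0.02 for transcription factors. The genes named below as changed kept their direction in every alternative that tested them.

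The chaperones and the sodium-coupled carriers gave no calls. BSG, which escorts SLC16A1 and SLC16A3, went from 425 ± 9.0 FPKM without to 428 ± 5.3 FPKM with miR-424 (log2 change 0.01 ± 0.03, SE), and NPTN, a relative of BSG, had 37.6 ± 0.62 and 35.6 ± 1.7 FPKM (SD, n = 3). Of the 3 tested chaperone genes 0 passed limma, and 0 had an unadjusted p under 0.05, against 23.6% of all tested loci. SLC5A8 and SLC5A12, which couple monocarboxylates to sodium, were listed at 0 in all 6 libraries.

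Enzymes that make or use lactate and pyruvate showed 2 falls among 16 tested genes, against 6.32% of all tested loci. PDK4, a kinase that inhibits the pyruvate dehydrogenase complex, read 18.8, 18.9 and 18.6 FPKM in EV replicates 1, 2 and 3 and 13.5, 14.8 and 11.5 FPKM in miR-424 replicates 1, 2 and 3 (log2 change -0.48 ± 0.08, SE; adjusted p = 0.0212 by limma with Benjamini-Hochberg). PC, pyruvate carboxylase, fell from 3.05 ± 0.24 to 2.21 ± 0.15 FPKM (adjusted p = 0.0272 by limma with Benjamini-Hochberg). The groups of both genes did not overlap, which also held for 33.5% of all tested loci. The call of PC was lost without EV replicate 1, 2 or 3 or miR-424 replicate 1 or 2 (log2 change -0.37 to -0.29 over single omissions), and that of PDK4 without EV replicate 1, 2 or 3 or miR-424 replicate 1 (-0.55 to -0.38). PC also lost its call with median-of-ratios scaling, with quantile normalization and without a filter on low values. The lactate dehydrogenase genes LDHA (484 ± 0.59 and 481 ± 2.1 FPKM) and LDHB (647 ± 0.95 and 656 ± 16 FPKM, SD, n = 3), named for their level, did not pass.

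Among 11 tested genes of glucose uptake and glycolysis, HK2, a hexokinase that commits glucose to metabolism, rose, against 1.24% of all tested loci. It read 5.78, 6.10 and 6.14 FPKM in EV replicates 1, 2 and 3 and 7.85, 8.17 and 7.64 FPKM in miR-424 replicates 1, 2 and 3 (log2 change 0.34 ± 0.05, SE; adjusted p = 0.00947 by limma with Benjamini-Hochberg), and the groups did not overlap. Groups without overlap were found for 33.5% of all tested loci. The call of HK2 was lost without EV replicate 1, 2 or 3, with log2 changes of 0.32 to 0.36 over single omissions. In the list of carbonic anhydrases and acid-base transporters 1 of 4 tested genes, SLC4A2, an anion exchanger gene, fell from 40.5 ± 0.53 to 35.4 ± 1.3 FPKM (SD, n = 3; adjusted p = 0.0401 by limma with Benjamini-Hochberg). For falls the share of all tested loci was 6.32%. The call of SLC4A2 was lost without EV replicate 1, 2 or 3 or miR-424 replicate 1 or 2. Over single omissions its log2 change was -0.21 to -0.16. The call was also lost with the replicate block and with median-of-ratios scaling (-0.13). With the GC trend removed the log2 change was -0.10, and it was -0.056 with miR-424 replicate 3 also left out. SLC4A2 passed in neither of these settings.

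The substrates linked to single members were followed through their own lists. In ketone body metabolism 0 of 7 tested genes passed limma and 1 had an unadjusted p under 0.05, against 23.6% of all tested loci. OXCT1, which starts ketone body use, had 101 ± 2.7 and 102 ± 13 FPKM, while ACAT1 had 37.9 ± 0.41 and 38.5 ± 2.1 FPKM (SD, n = 3). OXCT1 passed without miR-424 replicate 3, at a log2 change of 0.11. In carnitine transport and acyl transfer 0 of 9 passed limma and 3 had an unadjusted p under 0.05, against the same 23.6%. CPT1A, the gatekeeper of mitochondrial fatty acid entry, had 28.9 ± 0.46 and 26.6 ± 0.43 FPKM, and the locus of CPT1B, which shares its value with CHKB, had 11.8 ± 0.43 and 10.5 ± 0.29 FPKM (SD, n = 3). Both loci had groups that did not overlap, against 33.5% of all tested loci. Their limma adjusted p (Benjamini-Hochberg) was 0.114 and 0.0871. Without miR-424 replicate 3 both passed, at log2 changes of -0.125 and -0.149.

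Of 5 tested transporters of aromatic and large neutral amino acids, 2 fell, against 6.32% of all tested loci. These 2 genes encode the chains of 1 heterodimer. SLC7A5, the light chain, read 155, 155 and 159 FPKM in EV replicates 1, 2 and 3 and 122, 119 and 134 FPKM in miR-424 replicates 1, 2 and 3 (log2 change -0.32 ± 0.05, SE; adjusted p = 0.0157 by limma with Benjamini-Hochberg). SLC3A2, the heavy chain, fell from 123 ± 2.3 to 105 ± 2.6 FPKM (SD, n = 3; adjusted p = 0.0177 by limma with Benjamini-Hochberg). The groups of both did not overlap, against 33.5% of all tested loci. Their calls were lost without EV replicate 1, 2 or 3 or miR-424 replicate 1, and that of SLC3A2 also without miR-424 replicate 2, with log2 changes of -0.37 to -0.28 (SLC7A5) and -0.24 to -0.21 (SLC3A2) over single omissions. With median-of-ratios scaling neither passed (-0.26 and -0.17), and SLC7A5 was also lost with quantile normalization and SLC3A2 with the replicate block (adjusted p of 0.0522 and 0.0594 by limma with Benjamini-Hochberg).

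Of 8 tested transcription factor genes linked to MCT expression, HIF1A rose, against 1.24% of all tested loci. It read 181, 177 and 173 FPKM in EV replicates 1, 2 and 3 and 239, 244 and 203 FPKM in miR-424 replicates 1, 2 and 3 (log2 change 0.36 ± 0.07, SE; adjusted p = 0.0315 by limma with Benjamini-Hochberg). All miR-424 libraries were above the EV libraries, and 33.5% of all tested loci had groups without overlap in either direction. The call was lost without EV replicate 1, 2 or 3 or miR-424 replicate 1 or 2 (log2 change 0.31 to 0.45 over single omissions) and without a filter on low values. MYC, which drives SLC16A1 in other cells, was at 86.6 ± 1.3 and 86.0 ± 6.3 FPKM (SD, n = 3) and did not pass.

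**Figure D4:**
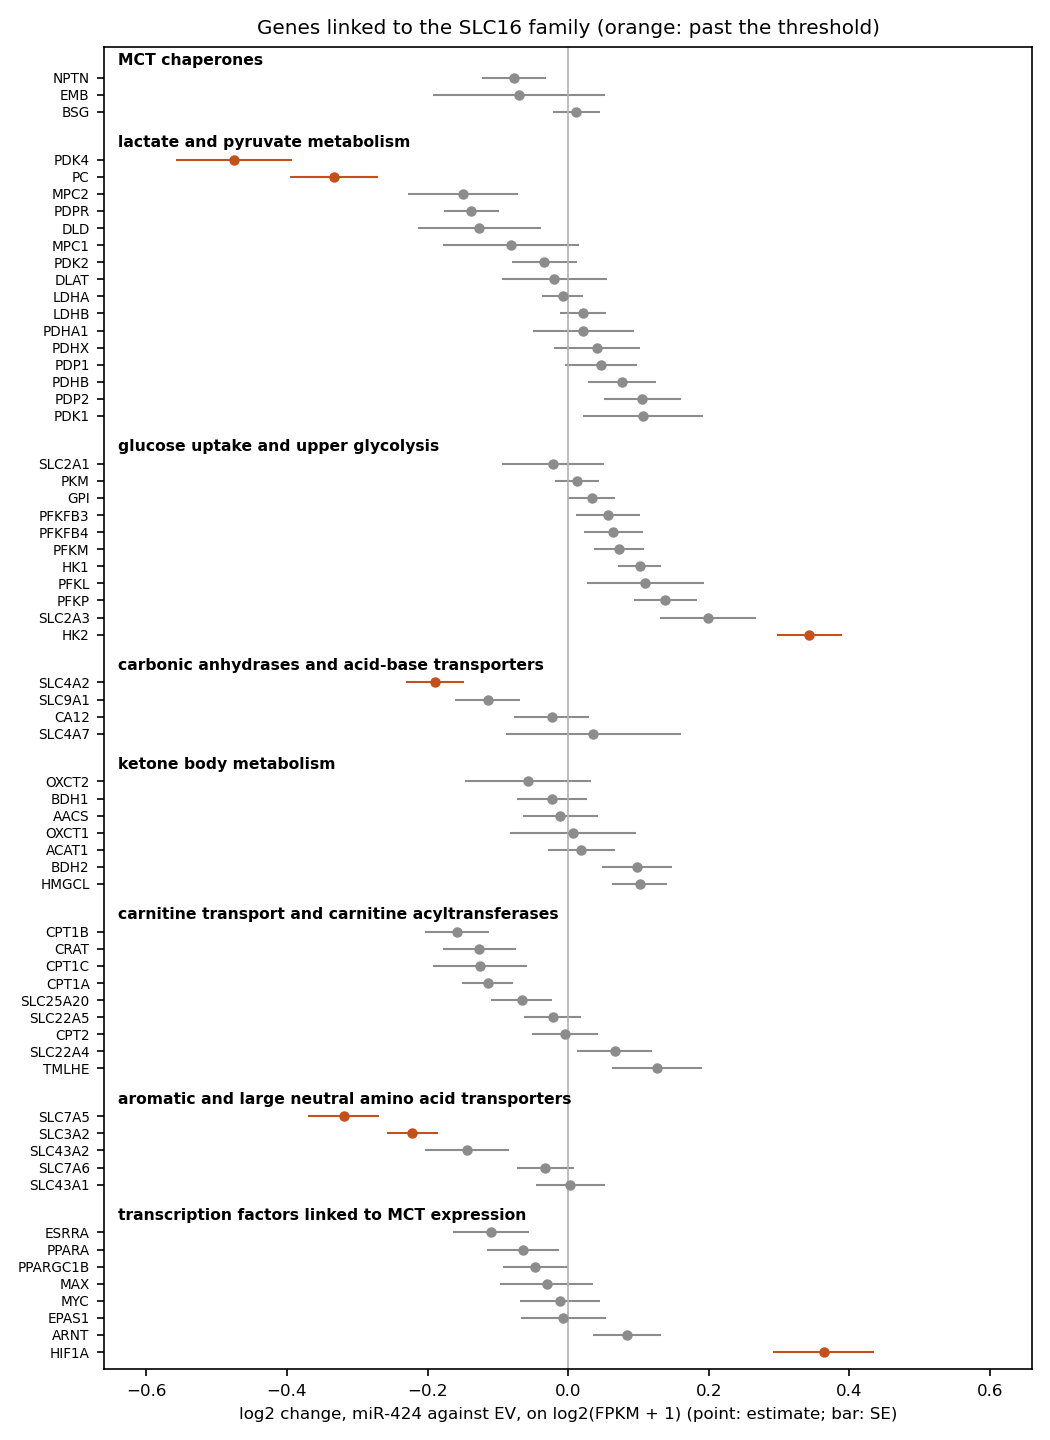
Log2 change between miR-424 and EV cells on log2(FPKM + 1) (horizontal axis; point, estimate; bar, SE) for the 63 tested genes of the lists linked to the SLC16 family; orange marks the 7 past the limma threshold. HK2 (0.34) and HIF1A (0.36) lie to the right and PDK4 (-0.48), PC (-0.33), SLC7A5 (-0.32), SLC3A2 (-0.22) and SLC4A2 (-0.19) to the left.

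Cell identity markers were read beside these values. Basal and luminal keratins were present (KRT5 63.7 ± 2.3, KRT8 164 ± 4.3 and KRT18 88.1 ± 3.0 FPKM in EV cells, SD, n = 3), whereas KRT19 and TP63 stayed between 0.0421 and 0.192 FPKM. Basal markers summed to 105 to 110 FPKM in EV and 88.5 to 90.8 FPKM in miR-424 libraries, and of 4 tested genes KRT5 fell (log2 change -0.63) and KRT14 rose (0.71). Of all tested loci 6.32% passed as lower and 1.24% as higher. Luminal markers summed to 249 to 259 and 239 to 261 FPKM. Leukocyte and endothelial defining markers (PTPRC, CD3E, PECAM1, CDH5 and VWF) did not exceed 0.244 FPKM, and the leukocyte sum rested on CD68 (55.9 ± 1.5 and 54.7 ± 3.3 FPKM). Of the 4 fibroblast markers DCN, which encodes decorin, was the most abundant, at 120.04 ± 4.1 and 130.2 ± 10.5 FPKM (SD, n = 3), and did not pass. COL1A2 and PDGFRA did not exceed 0.0342 FPKM, and COL1A1, a collagen gene, rose from 39.0 ± 1.5 to 45.2 ± 1.7 FPKM (SD, n = 3). The calls of KRT14 and COL1A1 were lost without EV replicate 1, 2 or 3 or miR-424 replicate 1, and that of COL1A1 without miR-424 replicate 2, at log2 changes of 0.61 to 0.83 and 0.18 to 0.24 over single omissions. COL1A1 was also lost with the replicate block, without a filter on low values and with a prior variance without trend. Without miR-424 replicate 3, KRT8 (-0.11) and CD68 (-0.08) passed. Whether the shifts of KRT5, KRT14 and COL1A1 bear on the transporter values was not tested.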

How the data were processed

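RNA sequencing of 6 MCF12A samples was represented by 1 table of FPKM values deposited by the authors, with 1 column per sample matched by title. TopHat 1.4.1, Cufflinks 1.3.0, Cuffdiff and hg19/GRCh37 are named, without role, in the submitters' processing notes. Gene annotation, read depth and library scaling, not given in the sources used here, stay unknown. Values were taken as log2(FPKM + 1), which understates changes of low genes. The 11574 loci whose mean reached 1 FPKM were fitted with limma 3.58.1 (R 4.3.3, trended prior, two-sided, Benjamini-Hochberg over all loci, threshold 0.05). The fit was also run on simulated data drawn with the spread of the EV libraries alone. That run does not cover the wider spread of the miR-424 libraries. FPKM are not counts, so no count test was run. An exact permutation test of 3 against 3 cannot go below 0.1.

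Members and lists were chosen with earlier results of these data known. Named genes were the members, 4 other SLC16 genes, up to 3 called members per list by adjusted p (otherwise the 2 most abundant), the neighbours of SLC16A6, 5 loci most like it and MIR424; LDHA, LDHB and MYC were named after their values were seen. GC content came from GENCODE 29 transcripts, by RefSeq accession or symbol (98.5% of tested loci). Alternatives were pseudocounts of 0.1 and 0.5, other filters, scaling, the prior, a replicate block and the omission of each library; removal of the GC trend was added after seeing the data. 1 result is not reported here.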

Additional observations from a re-analysis of the deposited data

How the results depend on the processing

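SLC16A6 stayed past the threshold, in the same direction, in all 16 alternatives. As it was selected on this contrast, that describes only how its value depends on the processing. The count of members past it, 1 with the values as deposited, was 1 to 5 over omissions of single libraries and 4 with miR-424 replicate 3 left out and the GC trend removed. The 7 calls in the partner lists became 0 to 29 over single omissions, 3 with median-of-ratios scaling, and 24 with the GC trend removed and miR-424 replicate 3 left out. Over all loci, 875 calls (144 higher, 731 lower) became 110 to 4302 (31 to 1728 and 77 to 2574) over single omissions. They were 575, with 468 lower, at a minimum of 5 FPKM. With the GC trend removed there were 1521, of which 676 were higher, and with miR-424 replicate 3 left out as well 3399 (1666 and 1733). Median-of-ratios scaling gave 308 higher and 495 lower, and quantile normalization 319 and 447. With fewer samples a fit has less power, and calls fell when any library but miR-424 replicate 3 was omitted. That replicate differed from miR-424 replicates 1 and 2 by a median of 0.142 and 0.152 (log2), against 0.0408 between those. Without it the SE of SLC16A1 went from 0.097 to 0.026. What sets that replicate apart was not tested.

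With the replicate block there were 349 calls (79 higher, 270 lower). Deviations of same-numbered samples correlated at 0.0509, 0.152 and 0.127 across loci. Each miR-424 library correlated best with the EV library of its own number. EV replicate 1 correlated slightly higher, at 0.0613, with miR-424 replicate 2. Values this small do not settle whether the numbers pair the samples, which the labels do not say. SLC16A6 passed under the block.

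Log2 changes that did not pass reversed sign for BSG (-0.018) and CD68 (0.00049) with quantile normalization, and for KRT8 (0.018), KRT18 (0.0027) and CD68 (0.023) with median-of-ratios scaling. With the GC trend removed KRT8, KRT18 and CD68 were at 0.035, 0.019 and 0.030, and with miR-424 replicate 3 also left out KRT18 was at 0.053 and ACAT1 at -0.057. Over single omissions OXCT1 ranged from -0.060 to 0.11, ACAT1 from -0.026 to 0.045, KRT8 from -0.11 to 0.0059, SLC16A3 from -0.097 to 0.065 and SLC16A7 from -0.0098 to 0.23. Read numbers are unknown, so no counting error is given.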
